A study of Sus scrofa with 12 samples.

Results

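The AP-1 and immediate early response is described here through 10 genes, FOS, FOSB, FOSL1, FOSL2, JUN, JUNB, JUND, EGR1, ATF3 and IER3, which were looked up by symbol or pig Ensembl identifier in a table of mRNA reads. Of these 10 members, 6 were found and measured (FOS, FOSL1, JUNB, EGR1, ATF3 and IER3), among 13363 distinct symbols in the table. JUN appeared through its synonym C-JUN alone, on an entry with 0 reads, and FOSB, FOSL2 and JUND had no entry under their symbols or identifiers. The libraries came from adipose tissue-derived mesenchymal stromal/stem cells (MSCs) of 3 female domestic pigs, aged 3 months, and from the extracellular vesicles (EVs) that the same cells shed. The 3 MSC and 3 EV libraries carry the numbers 1, 2 and 3 in their titles. The same number was taken to mean the same animal, and the libraries are called here by pig 1, 2 and 3. All cells were at passage 3 and were grown with platelet lysate, no arm received a treatment, and EVs were pelleted from culture supernatants by ultracentrifugation.

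AP-1 is a dimer of basic leucine zipper proteins, in which a FOS family protein pairs with a JUN family protein, or JUN proteins pair with each other or with ATF proteins. The genes of several subunits, together with EGR1, a zinc finger transcription factor, belong to the immediate early genes, which are transcribed within minutes of a growth factor, wound or stress signal from existing proteins through MAP kinases and serum response factor. Their mRNAs are short-lived, and in stromal cells AP-1 is known for driving genes of matrix proteases, cytokines and proliferation.

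The question was whether these mRNAs stood at another level in EVs than in their parent MSCs. Libraries held 10429085 to 12276855 reads counted on genes. In edgeR 12392 entries were tested. Past a 2-fold difference and an adjusted p of 0.05, 0 entries were higher and 0 lower (background 0.0% in each direction), and 1978 had an unadjusted p under 0.05. With DESeq2 these backgrounds were 2.04% higher and 1.5% lower. In edgeR with the pig as a model term they were 0.492% and 0.605%. By the thresholds of the study, a difference of over 2-fold whose unadjusted p was under 0.05, 5.55% of entries were higher and 3.57% were lower in EVs. All 6 measured members passed the filter on low counts. By the same unadjusted thresholds 1 of them was higher in EVs, ATF3, and 1 was lower, FOSL1. The counts were the same 1 and 1 with the pig as a model term (8.01% and 5.17% of entries) and in DESeq2 (6.29% and 4.33%). By adjusted p, 0 of the 6 passed in edgeR.

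FOS encodes the founding FOS family subunit, which cannot form dimers with itself and needs a JUN partner. Its entry (ENSSSCG00000002383, chromosome 7 from 104293657 to 104297121 on the plus strand, in the susScr3 build that the submitters' processing notes name) had 115, 259 and 318 reads in the MSC libraries of pigs 1, 2 and 3. The EV libraries of the same pigs had 655, 395 and 290 reads. In deposited RPKM (reads per kilobase of the gene model, scaled to the total reads of the library) the levels were 1.21, 2.78 and 3.41 in MSCs and 7.45, 4.17 and 3.25 in EVs. In RPKM the groups therefore met in pig 3, whose EV level was under its MSC level. After TMM normalization, which scales each library by the bulk of its genes, the groups were apart, with EVs at 29.3 to 55.3 CPM (counts scaled to a common library size) and MSCs at 8.91 to 27.0. The fitted log2 fold change (log2FC, EVs over MSCs) of FOS was 0.93 ± 0.46 (standard error) in edgeR, and the adjusted p was 0.349. Most of that came from pig 1, where the log2 ratio of EV to MSC was 2.63, against 0.32 in pig 2 and 0.12 in pig 3. It was 0.57 without the MSC library of pig 1 and also 0.57 without the EV library of that pig. The table holds a second FOS entry, listed under its symbol and lying inside the first (from 104293828 to 104296291), with 0 reads in every library. If reads in the shared bases were set aside as ambiguous, the reads printed here come from the rest of the model, and this was not tested. In these bulk libraries, a change in the kinds of cells or vesicles sampled and a change in RNA per cell or vesicle cannot be told apart.

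FOSL1 encodes FRA1, a FOS family subunit without a strong transactivation domain that stays on longer than FOS in growing cells. It was lower in EVs in all 3 pigs (ENSSSCG00000012967, chromosome 2 from 5534025 to 5541866). The deposited RPKM values were 9.95, 11.5 and 7.59 in MSCs of pigs 1, 2 and 3, from 1564, 1773 and 1172 reads. In EVs they were 5.07, 3.15 and 6.01 RPKM, from 739, 495 and 891 reads. The groups did not overlap in RPKM or in TMM-normalized CPM, and the widest gap was in pig 2, with a log2 ratio of -2.13, against -0.96 in pig 1 and -0.14 in pig 3. The fitted level was 2.04 times as high in MSCs (log2FC -1.03 ± 0.36 standard error), with an unadjusted p of 0.0222 and an adjusted p of 0.266 in edgeR. FOSL1 was no longer past the unadjusted thresholds without the MSC library of pig 2 (log2FC -0.79) and without the EV library of pig 2 (-0.77) or of pig 1 (-1.02). An entry on the minus strand, CCDC85B, lies inside the span of FOSL1 and had 0 reads.

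FOS and FOSL1 thus stood on opposite sides, and their proportion within a library does not depend on how libraries are scaled. In MSCs of pigs 1, 2 and 3 there were 13.6, 6.85 and 3.69 FOSL1 reads for each FOS read. In EVs there were 1.13, 1.25 and 3.07. All EV libraries were under all MSC libraries, and the value moved little in pig 3. The mean log2 proportion was 2.81 ± 0.94 in MSCs and 0.71 ± 0.79 in EVs (SD, n = 3 each), a difference of -2.10 (p = 0.1 by a two-sided exact permutation test, which cannot go lower with 3 libraries against 3). The test took the libraries as unpaired. This proportion was chosen after its values were seen, so the p is no support for a difference. These reads were not scaled to the lengths of the 2 gene models. As a ratio of RPKM, the values were 8.20, 4.13 and 2.22 in MSCs of pigs 1, 2 and 3 and 0.68, 0.76 and 1.85 in EVs. Per length, FOS was thus above FOSL1 in the EVs of pigs 1 and 2. The proportion also uses the FOS entry with the limit given above. It is plotted by pig in the picture of FOSL1 reads per FOS read.

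**Figure D1:**
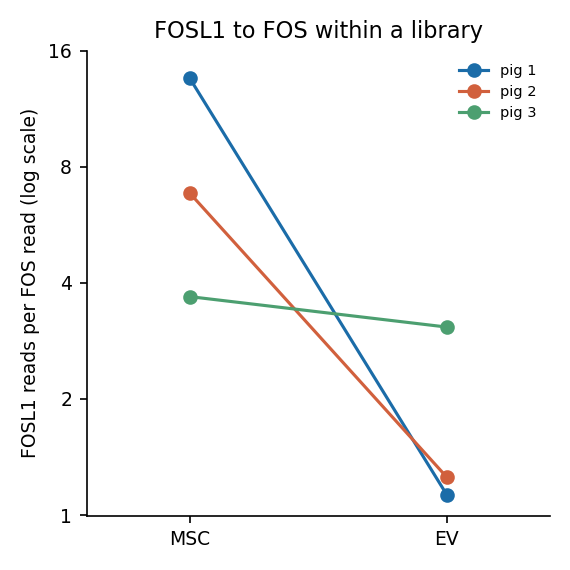
FOSL1 reads for each FOS read (vertical axis, log scale) in MSC and EV libraries (horizontal axis), with 1 point per library and a line joining the libraries of a pig. Reads are not scaled to gene length. The lines of pigs 1 and 2 drop from 13.6 and 6.85 to 1.13 and 1.25, and that of pig 3 goes from 3.69 to 3.07.

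The JUN family could be read for JUNB alone. JUNB encodes a subunit that is induced together with FOS and activates fewer genes than JUN. Its entry (ENSSSCG00000013735, chromosome 2 from 66505144 to 66507024) held MSC reads of 2241, 5878 and 3582 in pigs 1, 2 and 3, or 26.9, 71.9 and 43.8 RPKM. The EV libraries had 4426, 3620 and 3849 reads, or 57.4, 43.6 and 49.1 RPKM. The EV libraries all lay between the lowest and the highest MSC library. The log2FC of EVs over MSCs was 0.0082 ± 0.42 (standard error, adjusted p = 0.995 in edgeR), and it ranged from -0.32 without the MSC library of pig 1 to 0.55 without that of pig 2. The animals differed in direction, with log2 ratios of 1.11 in pig 1, -0.99 in pig 2 and 0.36 in pig 3. By mean RPKM, JUNB ranked 237th of 13363 symbols in MSCs and 178th in EVs.

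For JUN itself, which encodes the strongest transactivator of the family, the entry C-JUN (chromosome 6 from 141231122 to 141232332) was listed at 0 reads in every library. An entry with no symbol, ENSSSCG00000030839, covers the whole of it on the same strand (from 141230121 to 141233597). That entry had MSC reads of 150, 493 and 451 in pigs 1, 2 and 3 and EV reads of 264, 502 and 1174. Its log2FC of 0.89 ± 0.70 (standard error, adjusted p = 0.512 in edgeR) rested on the EV library of pig 3, without which it was -0.074. The files give the covering entry no name, so it was not counted as a member.

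EGR1 activates growth and matrix genes from GC-rich sites. On the log2 scale it had the widest spread of the 6 members among MSC libraries (ENSSSCG00000014336, chromosome 2 from 146156065 to 146160020). MSC libraries of pigs 1, 2 and 3 had 520, 6130 and 3666 reads, or 3.62, 43.4 and 26.0 RPKM, so the highest was 11.99 times the lowest. The EV libraries had 5626, 6645 and 5655 reads, or 42.3, 46.4 and 41.8 RPKM, with the highest 1.11 times the lowest. EV levels were thus alike in the 3 animals and near the MSC level of pig 2. The standard deviation of log2 TMM-normalized CPM was 2.02 among MSCs and 0.13 among EVs, larger than in 98.6% and in 13.5% of all tested entries respectively. Between groups the log2FC was 0.74 ± 0.76 (standard error, adjusted p = 0.615 in edgeR), and with the pig as a model term it was 1.34 ± 0.64 (adjusted p = 0.279). It was 0.21 without the MSC library of pig 1 and 1.57 without the MSC library of pig 2. In TMM-normalized CPM the log2 ratio of EV to MSC was 3.56 in pig 1, -0.18 in pig 2 and 0.88 in pig 3. In deposited RPKM the direction in pig 2 was the other one, with 46.4 in its EV library against 43.4 in its MSC library.

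ATF3 is induced by stress and can form dimers with JUN proteins. It was the member with the lowest unadjusted p (ENSSSCG00000015595, chromosome 9 from 143690556 to 143703872). MSC libraries of pigs 1, 2 and 3 had 95, 78 and 89 reads, or 0.945, 0.789 and 0.901 RPKM. In EVs the reads were 124, 287 and 224, or 1.33, 2.86 and 2.36 RPKM. The EV libraries all exceeded the MSC libraries, while the 3 MSC libraries lay close together, at 7.36 to 7.55 TMM-normalized CPM. In edgeR EVs were 2.48-fold higher (log2FC 1.31 ± 0.36 standard error), with an unadjusted p of 0.00726 and an adjusted p of 0.227. DESeq2 gave an adjusted p of 0.0446 with a log2FC of 1.30. ATF3 was past the unadjusted thresholds in each of the 6 fits that left out 1 library, with log2FC values from 1.14 to 1.59. The log2 ratio was 0.51 in pig 1 and 1.59 in each of pigs 2 and 3.

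IER3 encodes a short-lived protein induced by NF-kappaB and MAP kinase signals that bears on cell survival. It was the member with the highest mean level in MSCs, ranked 85th of 13363 symbols by mean RPKM there and 192nd in EVs (ENSSSCG00000027607, chromosome 7 from 26987521 to 26988891 on the minus strand). MSC libraries of pigs 1, 2 and 3 had 2795, 10279 and 2910 reads, or 49.6, 185 and 52.5 RPKM. EV libraries had 2310, 2478 and 2841 reads, or 44.2, 44.0 and 53.5 RPKM. The MSC library of pig 2 stood apart, and the other 5 libraries lay between 44.0 and 53.5 RPKM. The log2FC was -1.098 ± 0.59 (standard error, adjusted p = 0.375 in edgeR), and without that library it was -0.039. Without the MSC library of pig 1 it was -1.45, past the unadjusted thresholds (adjusted p = 0.280 in edgeR). A very wide entry on the same strand, CCDC167, spans IER3 and had 1716 reads over all libraries.

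**Figure D2:**
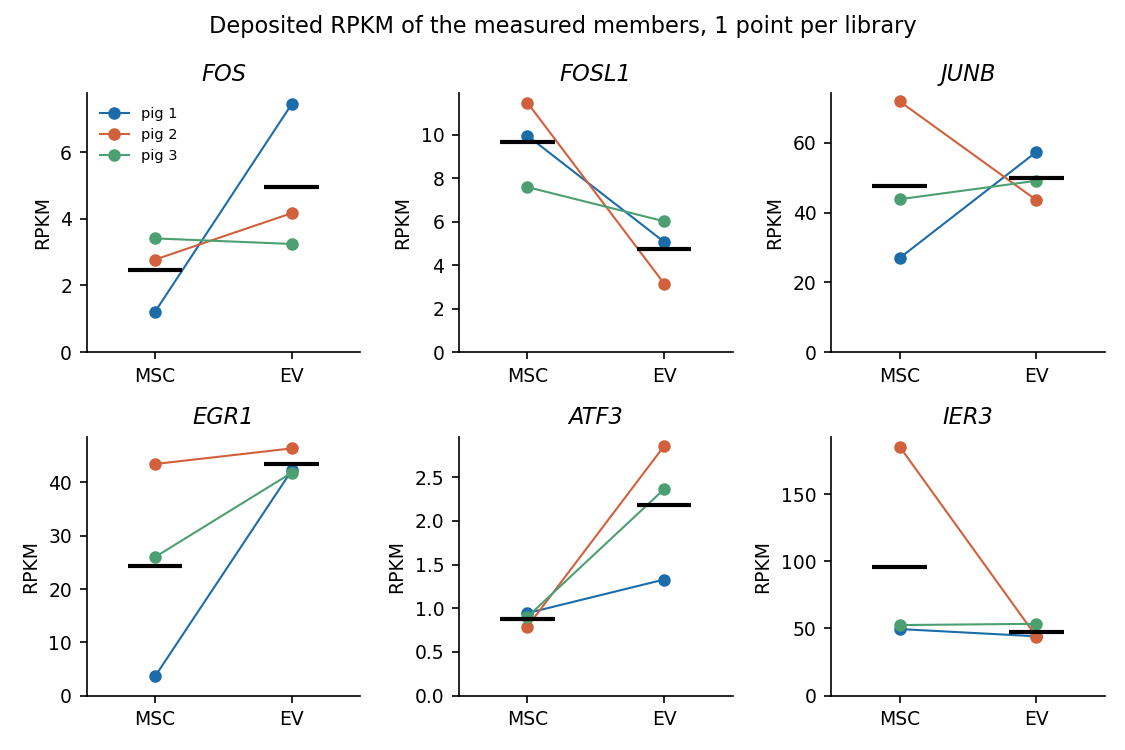
Deposited RPKM (vertical axes, from 0) of the 6 measured members in MSC and EV libraries (horizontal axes), with 1 point per library, a line joining the libraries of a pig and a black bar at the group mean, n = 3 each. ATF3 and FOSL1 are separated between groups, EGR1 converges from 3.62 to 43.4 RPKM in MSCs to 41.8 to 46.4 in EVs, and IER3 has a single high point at 185.

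**Figure D3:**
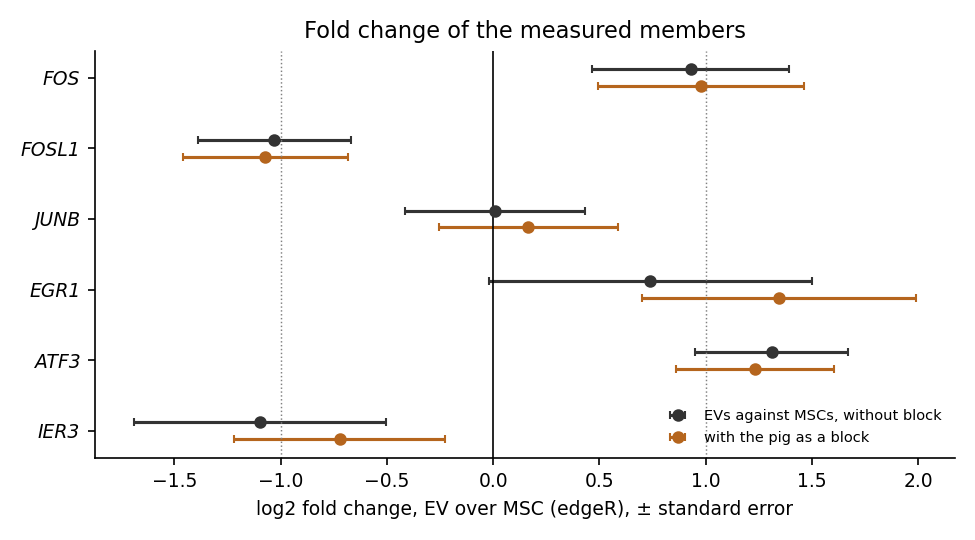
Log2FC of EVs over MSCs (horizontal axis) with its standard error for the 6 measured members, from edgeR without a block (black) and with the pig as a model term (brown), with dotted lines at a 2-fold difference. ATF3 lies at 1.31 and 1.23, FOSL1 at -1.03 and -1.07, and EGR1 moves from 0.74 to 1.34 with the block.

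The members differed in direction between MSCs and EVs. The log2FC was above 0 in 4 of the 6 members, against 49.1% of all tested entries, whose median was -0.016. That of JUNB, at 0.0082, changed sign in several alternative runs. All EV libraries exceeded all MSC libraries in TMM-normalized CPM for 2 members, FOS and ATF3, against 14.3% of all entries. Every EV library was under every MSC library for 1 member, FOSL1, against 13.6% of entries. The 6 members had different levels per length. In EVs the mean RPKM was 50.01 ± 6.94 for JUNB, 47.2 ± 5.42 for IER3 and 43.5 ± 2.51 for EGR1 (SD, n = 3 each), and these neighbours lay within about their spread of each other. FOS at 4.96 ± 2.21 and FOSL1 at 4.75 ± 1.46 also overlapped, and ATF3 was lowest at 2.18 ± 0.780 RPKM. In MSCs the order of mean RPKM was IER3 at 95.8 ± 77.6, JUNB at 47.5 ± 22.7, EGR1 at 24.4 ± 20.0, FOSL1 at 9.67 ± 1.96, FOS at 2.47 ± 1.13 and ATF3 at 0.878 ± 0.0804. Neighbours among the first 3 of these overlapped among libraries, whereas FOSL1, FOS and ATF3 were separate from one another in all 3 MSC libraries.

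By the standard deviation of log2 TMM-normalized CPM, differences among animals were larger in MSCs for JUNB, EGR1, IER3 and FOS, and larger in EVs for FOSL1 and ATF3. By the standard deviation of RPKM given above, FOS and FOSL1 were the other way round. Over all tested entries, the standard deviation of log2 values was larger in MSCs for 61.5%. The MSC library of pig 1 was the lowest MSC library for 5 of the 6 members (FOS, JUNB, EGR1, IER3 and, by a narrow margin, ATF3) in TMM-normalized CPM, and it was the lowest for 31.1% of all tested entries. The MSC library of pig 2 was the highest for 4 members, FOSL1, JUNB, EGR1 and IER3, and it was the highest for 38.9% of all tested entries. The plot of fold changes with each library left out shows which members depended on these 2 libraries.

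**Figure D4:**
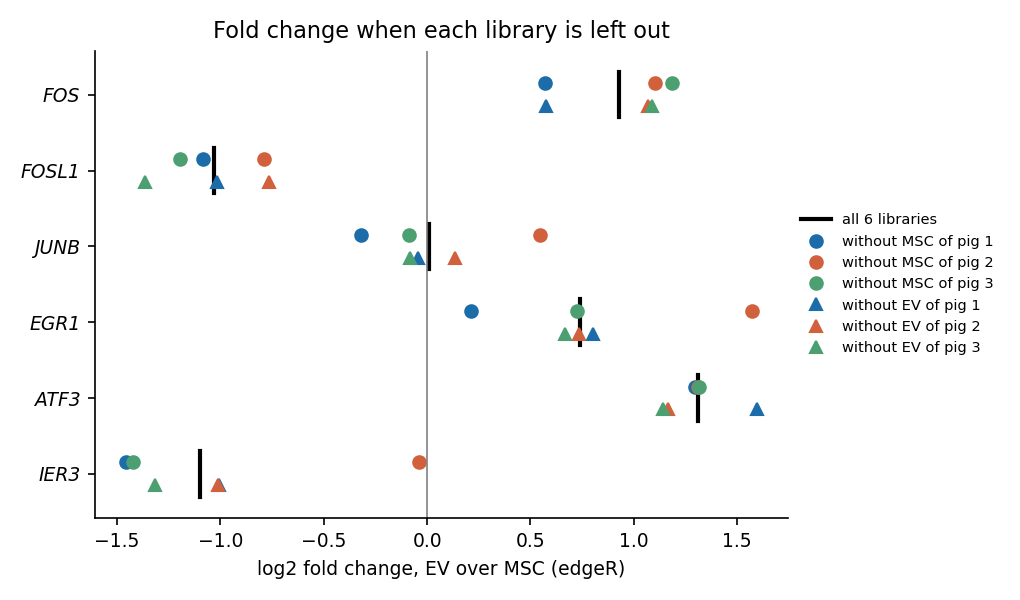
Log2FC of EVs over MSCs (horizontal axis) for the 6 measured members with all 6 libraries (black bar) and with each MSC library (circle) or EV library (triangle) left out, coloured by pig. EGR1 runs from 0.21 to 1.57 and IER3 from -1.45 to -0.039 according to which MSC library is left out, while ATF3 stays between 1.14 and 1.59.

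Other genes of the pathway were taken from 7 lists, with 152 distinct genes apart from the members. An entry existed for 121 of them, of which 22 were at 0 reads, and 91 could be tested. Some genes with 0 or few reads lie under other entries on the same strand that hold reads. RHOB had 0 reads, with 10069 on the other entry, and ZFP36 had 2, with 14423 on the others. For KLF6 the other entry was at 0 as well. A 0 therefore does not show that a gene was not expressed, and which gene the other reads belong to was not tested. Their median log2FC was 0.073, and 47 were above 0, against 49.1% of all tested entries. By the unadjusted thresholds 11 were higher and 5 were lower in EVs, against 5.55% and 3.57% of all entries. In edgeR without a block, 0 passed the adjusted threshold in either direction, against 0.0% of all entries. With the pig as a model term, 2 (EGR3 and MMP13) passed the adjusted threshold as higher and 2 (CCN1 and CCN2) as lower, against 0.492% and 0.605% of all entries. DESeq2 called 6 higher and 4 lower by adjusted p, against 2.04% and 1.5% of all entries. For each list below, the unadjusted shares over all entries are the same 5.55% higher and 3.57% lower. With the pig as a model term they are 8.01% and 5.17%.

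Of the 44 other immediate early genes, 22 could be tested, with a median log2FC of -0.36, and 9 of them were above 0. By the unadjusted thresholds 2 were higher and 4 lower. The higher ones were the EGR1 paralogs EGR3 and EGR2. EGR3 had MSC reads of 0, 8 and 4 in pigs 1, 2 and 3 and EV reads of 11, 85 and 37, with a log2FC of 3.37 ± 1.07 (standard error, adjusted p = 0.249 in edgeR and 0.0408 with the pig as a model term). EGR2 had MSC reads of 44, 116 and 154 and EV reads of 188, 238 and 529, with a log2FC of 1.67 ± 0.64 (standard error, adjusted p = 0.278 in edgeR). For both, each pig had more in its EVs, though EGR3 lost its unadjusted call without the EV library of pig 2 (log2FC 2.67). EGR2 lost its call without the EV library of pig 3 (0.91) or without the MSC library of pig 1 or of pig 2, and a second EGR2 entry at 0 reads overlaps the one used. The 3 with the largest difference in the other direction were CCN2 and CCN1, secreted matricellular proteins and known targets of YAP and serum response factor, and ID3, an inhibitor of basic helix-loop-helix factors. Their log2FC values were -4.82 ± 0.56, -4.37 ± 0.59 and -2.47 ± 0.52 (standard errors, adjusted p = 0.131, 0.143 and 0.212 in edgeR). With the pig as a model term CCN2 and CCN1 passed the adjusted threshold, each with an adjusted p of 0.0116. Another entry, with 688 reads, lies over the span of ID3.

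Serum response factor, which binds the promoters of FOS and EGR1 with ternary complex factors, had 4 of its 6 listed genes tested. SRF was lower in EVs by the unadjusted thresholds (MSC reads of 2101, 1517 and 1540 in pigs 1, 2 and 3, EV reads of 862, 954 and 527). Its log2FC was -1.13 ± 0.23 (standard error, adjusted p = 0.210 in edgeR), and it lost its unadjusted call without the EV library of pig 3 (-0.99). ELK4, a ternary complex factor, was higher by the same thresholds, with a log2FC of 2.15 ± 0.47 (standard error, adjusted p = 0.212 in edgeR). The median of the 4 was 0.18, and 3 of them were above 0.

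In the MAP kinase cascade, 22 of 29 genes were tested, with a median log2FC of -0.0054. MAP3K1, MAP3K2 and MAP3K5, kinases at the top of the cascade, were higher by the unadjusted thresholds, and 0 were lower. MAP3K1 had MSC reads of 48, 30 and 34 in pigs 1, 2 and 3 and EV reads of 105, 172 and 100, with a log2FC of 1.77 ± 0.33 (standard error, adjusted p = 0.206 in edgeR). MAP3K2 (log2FC 1.71) lost its call without the EV library of pig 3, and MAP3K5 (1.57) did so without the EV library of pig 2 or without the MSC library of pig 2 or pig 3. Of the 15 MAP kinase phosphatases and feedback inhibitors 8 were tested, 0 passed the unadjusted thresholds without a block, and their median was -0.34. With the pig as a model term 1 passed as lower, SPRY1 (log2FC -1.08, adjusted p = 0.233 in edgeR). DUSP4, which acts on ERK and JNK in the nucleus, had a log2FC of 0.67 ± 0.29 (standard error, adjusted p = 0.316 in edgeR). DUSP1, itself an immediate early gene, had one of -0.80 ± 0.31 (adjusted p = 0.282 in edgeR).

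Among 25 other basic leucine zipper genes, 12 were tested, with a median log2FC of 0.34 and 8 above 0. BACH1, a repressor of the heme oxygenase gene, had MSC reads of 399, 175 and 184 in pigs 1, 2 and 3 and EV reads of 433, 1172 and 1120. In each pig the EV library was the higher one. Its log2FC was 1.93 ± 0.47 (standard error, adjusted p = 0.219 in edgeR). Without a block 0 of the other 11 passed the unadjusted thresholds. With the pig as a model term 2 more did, ATF6 (log2FC 1.15, adjusted p = 0.217 in edgeR) and CREB1 (1.29, adjusted p = 0.185), which also passed them in DESeq2.

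Known AP-1 target genes also lay on both sides of 0. Of 22 listed, 12 were tested, with a median log2FC of -0.26, and 5 were above 0. The cytokine gene CXCL8 also passed the unadjusted thresholds with the pig as a model term, as lower (log2FC -1.64, adjusted p = 0.130 in edgeR). The collagenase gene MMP13 had MSC reads of 4, 48 and 9 in pigs 1, 2 and 3 and EV reads of 290, 5615 and 73. Each pig thus had more in its EVs, and the EV library of pig 2 held most of its reads. Its log2FC was 6.40 ± 1.78 (standard error, adjusted p = 0.228 in edgeR and 0.0116 with the pig as a model term), and 3.06 without the EV library of pig 2. TGFB1, a growth factor, was the other one past the unadjusted thresholds, with a log2FC of 1.25 (adjusted p = 0.277 in edgeR), and lost its call without the EV library of pig 2 (0.97) or without the MSC library of pig 1 or pig 3; other entries with reads lie over its span. Among factors that act on AU-rich mRNAs such as that of FOS, 13 of 15 were tested, with a median of 0.32 and 8 above 0. In the fit with the pig as a model term, TIA1 (log2FC 1.02) and CNOT6 (1.01) also passed the unadjusted thresholds as higher. The genes named for that fit alone (SPRY1, ATF6, CREB1, CXCL8, TIA1 and CNOT6) were chosen after their values were seen. XRN1, the exonuclease that degrades decapped mRNA, had a log2FC of 1.52 ± 0.43 (standard error, adjusted p = 0.237 in edgeR). CNOT6L, a deadenylase, had one of 1.18 ± 0.38 (adjusted p = 0.249 in edgeR) and lost its unadjusted call without the MSC library of pig 2 (0.92) or without the EV library of pig 3.

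**Figure D5:**
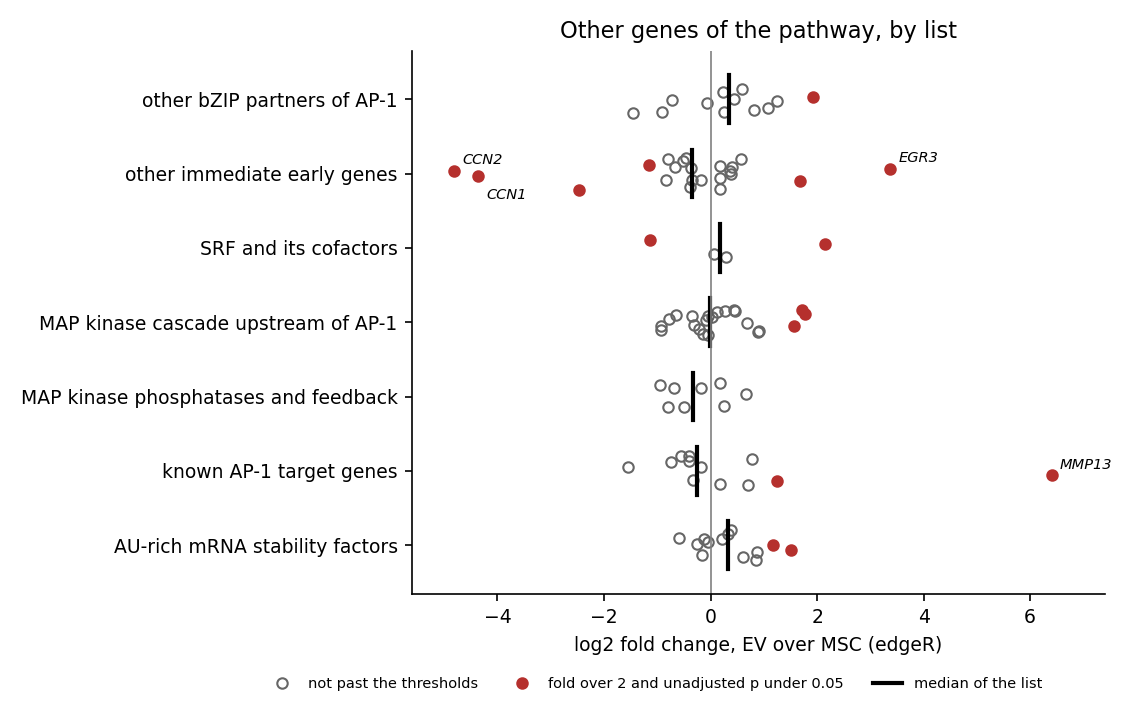
Log2FC of EVs over MSCs (horizontal axis) for the tested genes of the 7 pathway lists (vertical axis), with 1 circle per gene, filled where the fold change is over 2 with an unadjusted p under 0.05, and a black bar at the list's median. Medians lie between -0.36 and 0.34, with CCN2 and CCN1 at -4.82 and -4.37, EGR3 at 3.37 and MMP13 at 6.40.

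Markers of the labelled cells and of other cell types were read in the same libraries. The 6 mesenchymal stromal markers summed to 1737 to 3625 RPKM in MSCs and 1493 to 2518 in EVs, with THY1 listed at 0. The 4 vesicle markers summed to 184 to 339 RPKM in MSCs and 167 to 213 in EVs, and 2 of them had enough reads to be tested, with a median log2FC of -0.44. In the other lists 5 mesenchymal stromal, 3 smooth muscle and pericyte, 1 endothelial, 2 leukocyte and 0 adipocyte markers could be tested. The 7 smooth muscle and pericyte markers summed to 4.61 to 7.00 RPKM in MSCs and 1.104 to 2.08 in EVs, with TAGLN and RGS5 listed at 0, ACTA2 lower (log2FC -4.10) and NOTCH3 higher (2.21) in EVs by the unadjusted thresholds. The 4 endothelial markers with an entry summed to 0.594 to 1.12 RPKM in MSCs and 0.108 to 0.444 in EVs, with VWF at 0 and PECAM1 lower (log2FC -1.71). The 6 leukocyte markers summed to 5.52 to 7.16 RPKM in MSCs and 5.03 to 8.77 in EVs, with CD163 at 0. The 4 adipocyte markers with an entry summed to 0 to 0.495 RPKM in MSCs and 0.130 to 0.992 in EVs, with PLIN1 at 0. Whether these differences had a part in those of the members was not tested. A marker entry at 0, as with the entries FOS and C-JUN above, does not show that the gene was not expressed. The paper reports CD90, the protein of THY1, on its MSCs.

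Genes with the most similar pattern were sought over the 6 libraries by Pearson's r of log2 TMM-normalized CPM, among 7730 tested genes with a symbol, for the most-read FOS family member, the most-read JUN family member and EGR1. For FOSL1 these were SUPT3H (r = 0.996), GPER1 (0.993) and PDGFA (0.992). For JUNB they were AEBP1 (r = 0.981), SBNO2 (0.963) and PTPRM (0.961). For EGR1 they were FBXO8 (r = 0.985), GGT5 (0.983) and PDGFRB (0.962). GGT5 had MSC reads of 381, 3742 and 2569 in pigs 1, 2 and 3 and EV reads of 2314, 3372 and 2961, so that its MSC library of pig 1 was low as for EGR1. FBXO8 varied far less than EGR1, from 197 to 254 reads. The 6 libraries share 3 animals and their scaling, and the values are a description.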

How the data were processed

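Total RNA of MSCs and EVs was sequenced after TruSeq library preparation. The methods name a TruSeq RNA sample preparation kit, whereas the submitters' labels name a stranded total RNA kit. The deposited raw counts for each gene entry followed TopHat alignment by the authors. Gene counting is given as featureCounts in the methods, whereas the submitters' notes list HTSeq, and its strand setting was not given in the sources used here. The authors also deposited RPKM, whose implied library totals are larger than the gene counts, which hold 25.4% to 28.2% of them. Of 29661 entries, 3 were shifted by a column and left out. Symbols came from the table or from the Ensembl identifiers, and the entry with the most reads stood for a symbol. EVs were compared with MSCs on the counts with edgeR 4.0.16 (TMM, filterByExpr, quasi-likelihood test, no block) in R 4.3.3, with Benjamini-Hochberg adjustment over all 12392 entries. Standard errors were derived from the F statistic. Scripts were tested on simulated data. DESeq2 1.42.0, limma 3.58.1 on log2 RPKM plus 1 or 0.1, other scalings and filters, summed entries, a pig block and the omission of single libraries were alternatives.

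The members and lists were chosen with earlier results of these data known. From a list, at most 3 genes in a direction were named, in order of fold change and past the unadjusted thresholds, or the 2 with the most reads where none passed. Replicates are separate pigs, and libraries were paired by the number in their titles, which was taken as the pig. Deviations from the group means correlated at 0.251, 0.384 and 0.408 within pigs and at -0.364 to -0.038 between pigs. Subtracting the group means ties these values together, so positive ones within pigs push those between pigs below 0. The negative values are therefore no separate sign of the pairing. The FOSL2 and JUND shares of their families, planned as tests, could not be computed because neither gene was found under its symbol or identifier. Of 25322 entries named by Ensembl identifier, 11804 had a symbol, so an entry without a name could hold such a gene. The small-RNA libraries were not analysed here.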

Additional observations from a re-analysis of the deposited data

How the results depend on the processing

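With 3 libraries a group, 1 library could set a member's value. Left out 1 at a time, the libraries gave 0 to 2 members lower by the unadjusted thresholds, 8 to 14 list genes higher and 4 to 9 lower, and 511 to 948 entries higher and 270 to 607 lower. JUNB changed sign with the factors of DESeq2 in edgeR (-0.019), in DESeq2 (-0.019) and without MSC replicate 1 (-0.32), MSC replicate 3 (-0.087), EV replicate 1 (-0.046) or EV replicate 3 (-0.082), and it reached 0.55 without MSC replicate 2. The entry over C-JUN did so without EV replicate 3 (-0.074) and reached 1.29 without EV replicate 1. The other 5 members kept their direction in every alternative run. The difference in the log2 proportion of FOSL1 to FOS ranged from -2.56 to -1.62 over the fits that left out a library.

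By adjusted p, DESeq2 called 1 member higher (ATF3), 6 list genes higher and 4 lower, and 253 entries higher and 186 lower. With the pig as a replicate block, 2 list genes were higher and 2 lower, and 61 entries were higher and 75 lower. The block changed no call of a member. By the unadjusted thresholds it gave 15 list genes higher and 7 lower, against 8.01% and 5.17% of all entries. Without the filter, 2 list genes and 5 entries were lower by adjusted p. Limma on log2(RPKM + 1), which shrinks low genes, gave 2 list genes lower, 1 entry higher and 10 lower by adjusted p. By the unadjusted thresholds it gave 0 members higher and 0 lower, 4 list genes higher and 3 lower, and 233 entries higher and 194 lower. Adding 0.1 instead gave 2 list genes and 5 entries lower by adjusted p. Where no library is named, the cause was not tested.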
